A study of Rattus norvegicus with 40 samples.

Results

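The subject is 10 genes, 8 immediate early transcription factor genes (Fos, Fosb, Jun, Junb, Egr1, Atf3, Myc and Nr4a1) together with Nfkbia and Cebpd, measured in rat right ventricles across 4 groups. They were taken by name, as every array probe annotated to a listed gene. Of the 10 genes, 9 had a probe and all 9 of those were among the 9775 genes tested; Fosb had no annotated probe and has no value below. The 9 genes had 11 probes, of which 10 passed the filter on missing values, 4 animals or more with a value in each group.

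The ventricles came from 24 Sprague-Dawley rats, all male, with 6 animals in each of 4 groups. Animals called SuHx with carvedilol received SU5416, which blocks receptors of vascular endothelial growth factor, as 1 dose of 20 mg/kg, then 4 weeks of hypoxia at 10% O2, and then daily gavage of carvedilol, a beta and alpha1 adrenergic blocker, at 15 mg/kg for 4 weeks in room air. SuHx animals had the same dose and hypoxia and then 2 weeks at sea level. Hypoxia animals had only the 4 weeks of hypoxia, and normal animals were untreated. The time between the end of hypoxia and tissue collection was therefore 4 weeks with carvedilol, 2 weeks in SuHx and 0 weeks in hypoxia, so the drug and the longer recovery cannot be told apart. No group given the carvedilol vehicle or SU5416 alone was analysed here. Each RNA was hybridised in the Cy5 channel against a pooled rat reference RNA in the Cy3 channel, and every level below is the log2 ratio of ventricle over reference, averaged over the arrays of an animal. The base of the logarithm was read from the range of the values, so folds depend on it and tests do not. A negative level means less signal in ventricle than in the reference cell lines, and levels of different genes are not set against each other.

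The 24 animals gave 40 arrays, 8 from SuHx with carvedilol, 12 from SuHx, 12 from hypoxia and 8 from normal animals, with 1 to 5 arrays per animal. An array had a value for 19264 to 35758 of its 43379 spots, the lowest on a hypoxia array. The number of animals and the spread between arrays of the same animal both limit the precision. The median SD between arrays of the same animal was 0.71. Within groups, arrays of the same animal correlated at only 0.04 over all tested genes. The SDs of the log ratios on an animal's arrays averaged 1.98 with carvedilol, 1.88 in SuHx, 2.07 in hypoxia and 1.69 in normal animals (1 value per animal, n = 6 each). The labels number all 6 animals with carvedilol over 100, but no SuHx animal, 2 of 6 hypoxia animals and no normal animal. Numbering and treatment therefore cannot be told apart between carvedilol and SuHx or normal. With numbering as a covariate, which the hypoxia animals alone can estimate, Nfkbia with carvedilol was 2.05 ± 0.48 over SuHx (adjusted p = 0.0365) and Cebpd was 2.27 ± 0.44 over normal (adjusted p = 0.00851), both called as they were without it. Egr1 with carvedilol over SuHx, 1.04 without the covariate, was 0.34 with it. That fit carries a gap seen within 6 hypoxia animals over to the carvedilol group, so it cannot separate numbering from treatment.

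Immediate early genes are switched on within minutes of a growth factor, stretch or adrenergic stimulus, without new protein synthesis, and their messengers are short-lived. Most encode transcription factors that pass the signal on to later genes, and in heart muscle they are known to be induced briefly by pressure load. NF-kappaB is a family of transcription factors held in the cytoplasm by inhibitor proteins, of which the product of Nfkbia is the best known, and Nfkbia is itself an NF-kappaB target that closes a feedback loop.

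The promoter letters of 2 members with separated groups and of Nfkbia are shown because the classical inducible sites can be read in them. RefSeq promoter entries on GRCr8 were found for 5 of the 10 genes (Fosb, Junb, Egr1, Nr4a1 and Nfkbia), and the 250 bases before the start were searched on both strands. Egr1 is given in full (chr18:26736828-26737077, plus strand), with capitals on 2 CArG boxes, the serum response element core, and on 2 TGACG cores of the cyclic AMP response element, here read on the other strand. For Nfkbia (chr6:78597084-78597113, minus strand) and Nr4a1 (chr7:134259888-134259917, plus strand) 30 bases are given, since their entries start within the span of the gene table. Capitals mark the kappaB site in Nfkbia and 2 TGACG cores, read on the other strand, in Nr4a1.
Egr1: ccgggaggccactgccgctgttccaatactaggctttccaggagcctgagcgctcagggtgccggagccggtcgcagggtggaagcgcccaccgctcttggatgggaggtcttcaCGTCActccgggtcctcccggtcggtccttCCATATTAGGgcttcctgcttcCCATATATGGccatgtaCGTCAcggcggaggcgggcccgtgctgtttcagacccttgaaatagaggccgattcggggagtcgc
Nfkbia: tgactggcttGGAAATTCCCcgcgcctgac
Nr4a1: cctgCGTCAatggaaccccgcgtgCGTCAc

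The CArG boxes of Egr1 lay 105 to 96 and 83 to 74 bases before the start, and a CArG box occurred in 1.5% of 33469 rat promoter windows of the same length. The kappaB site of Nfkbia lay 31 to 22 bases before the start, and such a site occurred in 3.54% of windows. Nr4a1 held 4 TGACG cores in its window, Egr1 held 2 and Junb held 1, against 18.2% of all windows with at least 1. Nr4a1 also held a kappaB site 16 to 7 bases before its start. The full TGACGTCA element, found in 1.59% of windows, and the AP-1 site TGANTCA, found in 6.34%, were in none of the 5 windows. The searched sites can overlap each other, and a match is a run of letters, not a measured binding site.

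Cebpd, Nfkbia and Atf3 were the members that differed in comparisons of 2 groups, each by about 1 log2 unit or more, and every such difference was a higher level. Cebpd was higher in all 3 exposed groups than in normal ventricles. In bulk ventricle, a change in the share of a cell type and a change in RNA per cell cannot be told apart. Nfkbia was higher with carvedilol than in each of the other 3 groups, and Atf3 was higher in SuHx than in hypoxia and in normal ventricles. Calls rest on limma's moderated test, with p adjusted by Benjamini-Hochberg across the 9775 genes and a threshold of 0.05, and the values after ± are the model's standard errors. In SuHx with carvedilol against SuHx, 1 of 9 members was called, against 0.849% of all tested genes (0.297% higher and 0.552% lower). Against hypoxia, SuHx with carvedilol had 1 of 9 members called beside 16.4% of all genes (10.1% higher and 6.28% lower), and against normal it had 2 of 9 beside 10.5% (2.18% higher and 8.34% lower). SuHx had 1 of 9 called against hypoxia, where 11.2% of all genes were called (9.46% higher and 1.78% lower), and 2 of 9 against normal, where 0.91% were (0.389% higher and 0.522% lower). Hypoxia against normal had 1 of 9 members and 12% of all genes called (0.839% higher and 11.2% lower). With carvedilol or SuHx against hypoxia, and in hypoxia against normal, 1 called member of 9 is near the share of all genes called in either direction.

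On the deposited scale, with animal means, limma called none of the 9 members lower in any of the 6 comparisons. Other settings did: 7 member differences were called lower in at least 1 alternative way of processing. Fos was called lower in SuHx than in normal in 3 alternatives (-1.02 to -0.89), and with carvedilol than in normal with animal weights (-0.85) and when SuHx with carvedilol replicate 5 was left out (-1.01). Nr4a1 was called lower in SuHx than in normal in 5 alternatives and 1 omission (-0.86 to -0.69), and with carvedilol than in normal when values on every array were required (-0.60). Egr1 was called lower in SuHx than in hypoxia with quantile normalisation and with equal spread (-0.99 and -1.01), and Nfkbia with the animal as a random block (-0.74). Junb was called lower in hypoxia than in normal with animal weights (-1.12) and when the 2 sparsest hypoxia arrays were dropped (-0.98). Further members were called higher as well. With quantile normalisation and with equal spread, Jun, Egr1, Atf3 and Myc were called higher with carvedilol than in normal. At an unadjusted p under 0.05, 2 members were lower with carvedilol than in normal ventricles, 3 were lower in SuHx than in normal and 2 in hypoxia than in normal. In a test of any difference among the 4 groups, 5 of 9 members were called, beside 22.4% of all genes: Cebpd (adjusted p = 0.000227), Nfkbia (adjusted p = 0.00238), Atf3 (adjusted p = 0.00746), Egr1 (adjusted p = 0.0356) and Nr4a1 (adjusted p = 0.0416). Fos (adjusted p = 0.0791), Jun (adjusted p = 0.128), Junb (adjusted p = 0.192) and Myc (adjusted p = 0.236) were not. The median log2 difference over the 9 members was 0.23 for SuHx with carvedilol minus SuHx, where the median over all genes was -0.19. For SuHx with carvedilol minus normal it was 0.51 beside -0.32 over all genes, and for hypoxia minus normal it was 0.03 beside -0.38. The groups of 2 members did not overlap between SuHx with carvedilol and SuHx, of 1 between SuHx with carvedilol and normal, of 1 between SuHx and hypoxia and of 3 between SuHx and normal, and each is given below with the share of all genes. No member was without overlap between SuHx with carvedilol and hypoxia, beside 7.14% of all genes, or between hypoxia and normal, beside 6.98%. The comparisons share animals, so they are not independent of each other.

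**Figure D1:**
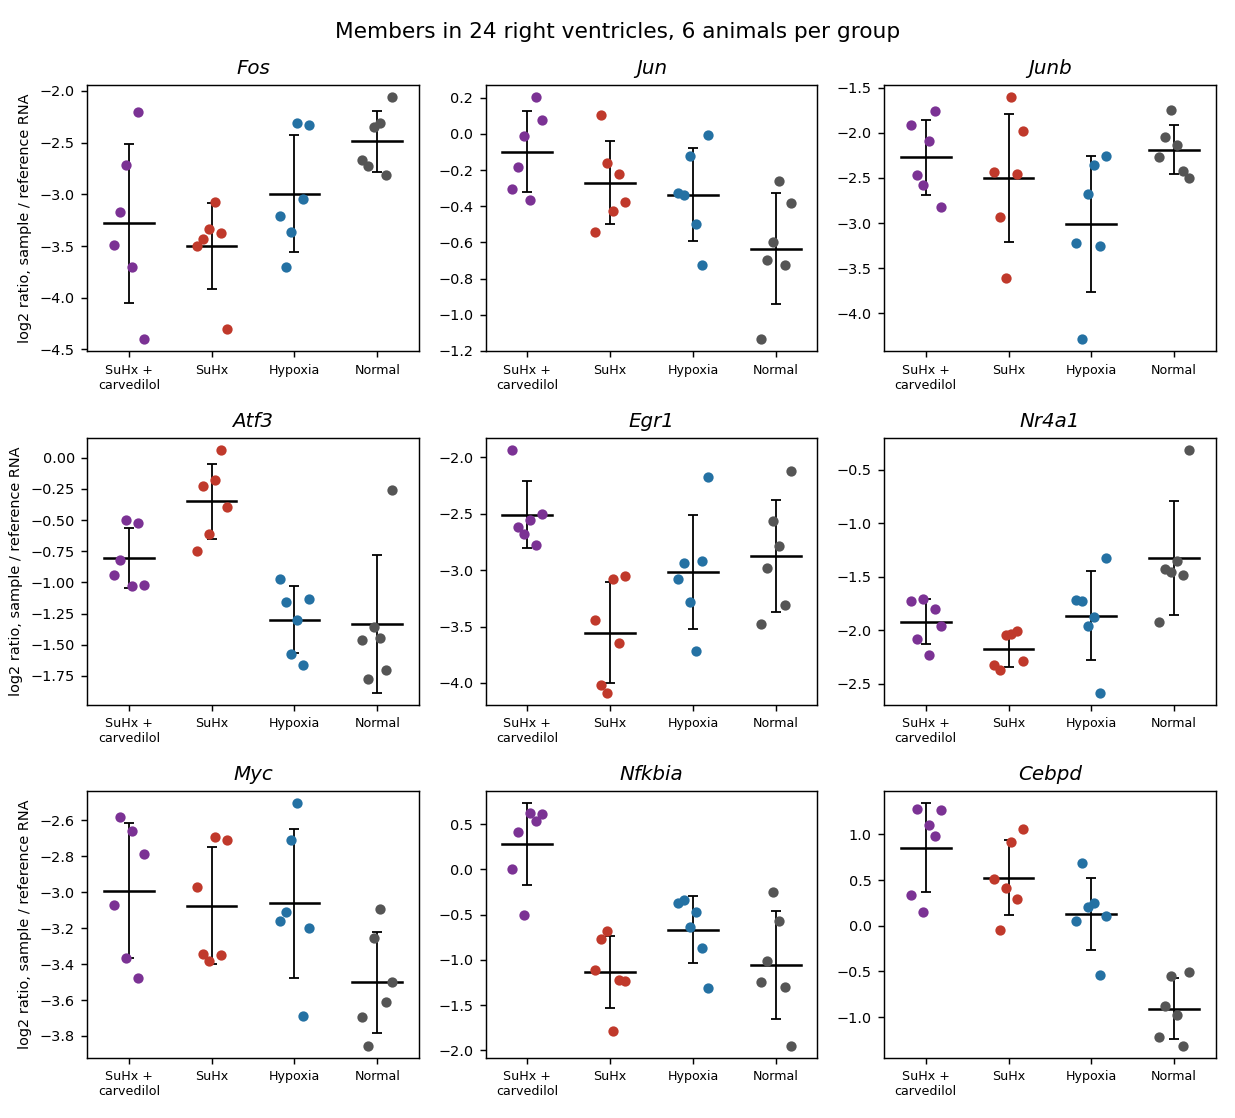
Log2 ratio of ventricle over reference RNA (vertical axis, its own range in each panel) for the 9 measured members in 24 animals; each point is 1 animal, the horizontal bar the mean and the whisker the SD of 6 animals. Cebpd separates the normal animals (highest -0.51) from the animals with carvedilol (lowest 0.15), and Atf3 and Nr4a1 each show 1 normal animal well above the other normal animals (-0.26 and -0.32).

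**Figure D2:**
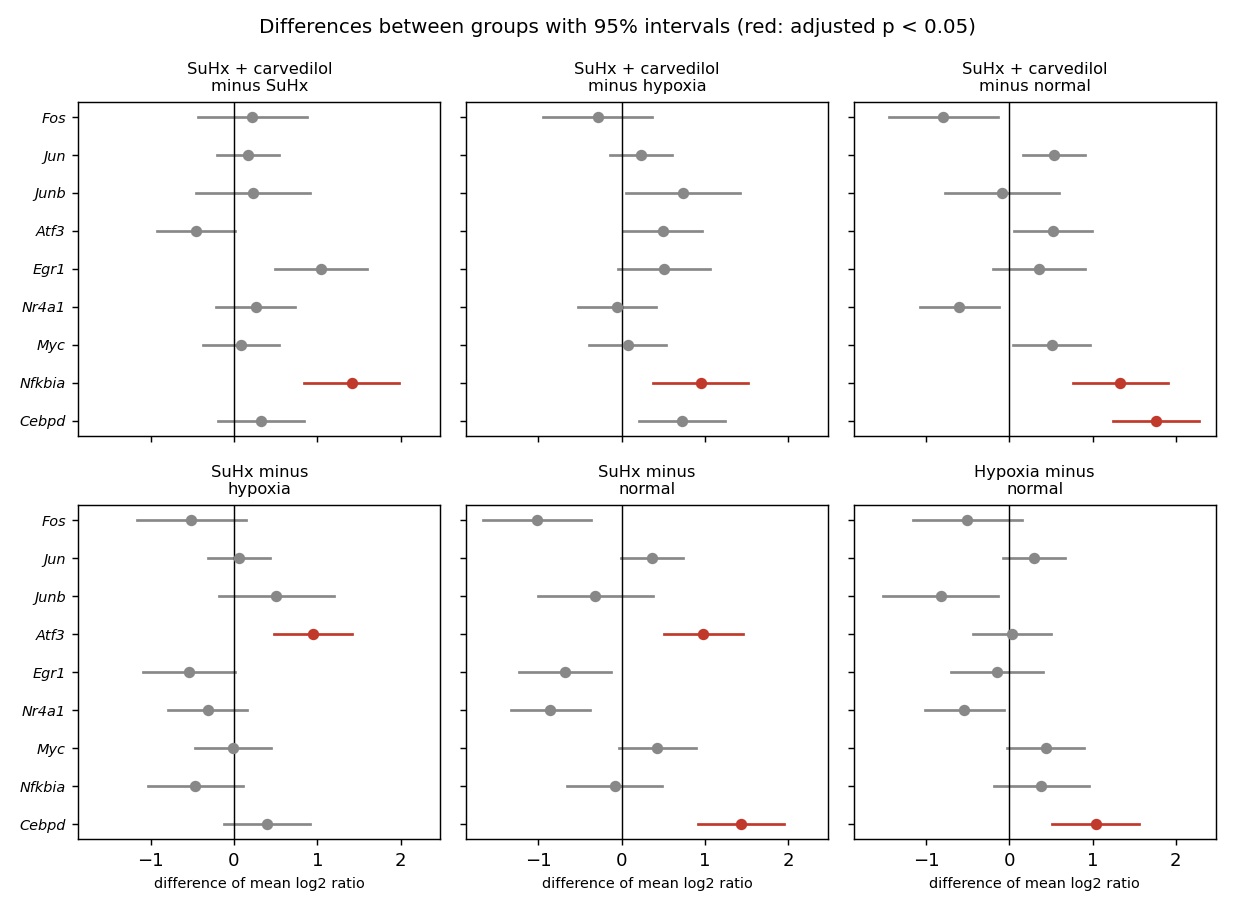
Difference of mean log2 ratio (horizontal axis) with its 95% interval for the 9 members in the 6 comparisons, named above each panel; red marks an adjusted p under 0.05. The called differences lie right of 0, between 0.95 for Nfkbia in SuHx with carvedilol minus hypoxia and 1.76 for Cebpd in SuHx with carvedilol minus normal.

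Fos (chr6:110852188-110855054) encodes a partner of Jun in the AP-1 transcription factor and is a classical marker of recent stimulation. Animals ran from -4.40 to -2.21 with a median of -3.33 in SuHx with carvedilol, from -4.30 to -3.08 with a median of -3.40 in SuHx, from -3.70 to -2.31 with a median of -3.13 in hypoxia, and from -2.81 to -2.06 with a median of -2.51 in normal ventricles. All 6 SuHx animals lay below all 6 normal animals, while the carvedilol and hypoxia groups overlapped with normal. The difference of SuHx minus normal was -1.02 ± 0.32 and did not pass the adjustment over all genes (adjusted p = 0.132). An exact permutation test of this gene alone, two-sided and unadjusted, gave p = 0.00216, the smallest that 6 animals against 6 can give. Any gene whose 2 groups do not overlap gets that p. It therefore only restates the separation, which 5.46% of all genes showed between SuHx and normal. With carvedilol minus normal it was -0.79 ± 0.32 (adjusted p = 0.109). Fos was measured by 1 probe, and its other annotated probe had a value on 1 of the 40 arrays only, from a SuHx animal.

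Jun (chr5:115009900-115012993), the AP-1 subunit that can also pair with itself, was read by 10 spots of 1 probe, whose median SD on an array was 0.104. Log2 ratios ran from -0.37 to 0.20 in SuHx with carvedilol, from -0.54 to 0.11 in SuHx, from -0.72 to -0.01 in hypoxia and from -1.14 to -0.26 in normal ventricles, with medians of -0.10 with carvedilol, -0.30 in SuHx, -0.33 in hypoxia and -0.65 in normal. The normal animals were the lowest as a group, but all groups overlapped. SuHx with carvedilol minus normal came to 0.54 ± 0.18 (adjusted p = 0.0571). That difference was called higher in 8 of 18 other ways of processing and in 3 of 24 omissions of 1 animal.

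Junb (chr19:40081126-40082910), an AP-1 subunit that often restrains Jun, varied most between animals of the 9 members. Its level ran from -2.83 to -1.76 in SuHx with carvedilol, from -3.61 to -1.60 in SuHx, from -4.29 to -2.26 in hypoxia and from -2.50 to -1.75 in normal ventricles. Hypoxia minus normal was -0.82 ± 0.33 (adjusted p = 0.108), and SuHx with carvedilol minus hypoxia was 0.74 ± 0.33 (adjusted p = 0.136). The lowest hypoxia animal was measured on 4 arrays, which read -7.57, -3.21, -3.16 and -3.22. Its low mean rested on the first of these 4 arrays, the other 3 lying close together. Without that array, left out after the data were seen, hypoxia minus normal was -0.64 (adjusted p = 0.154) and SuHx with carvedilol minus hypoxia was 0.56 (adjusted p = 0.203).

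Atf3 (chr13:105274103-105331653), a stress-induced member of the ATF/CREB family that mostly represses its targets, rose in SuHx. Animals ran from -0.75 to 0.06 with a median of -0.31 in SuHx, against -1.66 to -0.97 with a median of -1.23 in hypoxia and -1.77 to -0.26 with a median of -1.45 in normal ventricles. Every SuHx animal lay above every hypoxia animal, the 1 member of 9 with such a separation beside 7.16% of all genes, and 1 normal animal at -0.26 stood among the SuHx values. The difference was 0.95 ± 0.23 for SuHx minus hypoxia, a 1.93-fold higher ratio (adjusted p = 0.00898), and 0.98 ± 0.23 for SuHx minus normal (adjusted p = 0.0396). The call against normal rested on narrow margins. It was lost in 10 of the 24 fits that left out 1 animal, with an adjusted p of up to 0.109. Of 18 other ways of processing it held in 14. It was lost with a filter of 2 animals, a filter per comparison, the first array of each animal or the replicate block (adjusted p up to 0.0913). Without the high normal animal the difference was 1.20 (adjusted p = 0.00376). With carvedilol the level lay between, from -1.03 to -0.50 with a median of -0.88. SuHx with carvedilol minus normal was 0.53 ± 0.23 (adjusted p = 0.142) and minus hypoxia 0.49 ± 0.23 (adjusted p = 0.146). Over normal it was called higher in 4 of 18 other ways of processing, and over hypoxia in 1. The groups with carvedilol and SuHx did not pass the test (adjusted p = 0.318), which does not show that they were alike.

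Egr1 (chr18:26737078-26740877), a zinc finger factor whose promoter letters are printed above, had its lowest levels in SuHx. Log2 ratios ran from -2.77 to -1.94 with a median of -2.59 in SuHx with carvedilol, against -4.08 to -3.06 with a median of -3.54 in SuHx. Hypoxia animals ran from -3.71 to -2.18 with a median of -3.01, and normal animals from -3.48 to -2.12 with a median of -2.88. All 6 animals with carvedilol lay above all 6 SuHx animals. SuHx with carvedilol minus SuHx was 1.04 ± 0.27, just short of the threshold over all genes (adjusted p = 0.0609). The exact two-sided permutation p of 0.00216 for the gene alone only restates that the groups did not overlap. That difference was called in 8 of 18 other ways of processing, among them quantile normalisation between arrays (1.31, adjusted p = 0.0276). It was 0.34 ± 0.45 (adjusted p = 0.776) with the numbering of the animals as a covariate. SuHx minus normal was -0.68 ± 0.27 (adjusted p = 0.266). With Egr1 and Nfkbia, 2 of 9 members had no overlap between carvedilol and SuHx animals, beside 3.49% of all genes.

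Nr4a1 (chr7:134247153-134268044), an orphan nuclear receptor induced by cyclic AMP and adrenergic signals, had its highest levels in normal ventricles. Its level ran from -2.24 to -1.71 in SuHx with carvedilol, from -2.37 to -2.01 in SuHx, from -2.58 to -1.32 in hypoxia and from -1.92 to -0.32 in normal ventricles, with medians of -1.88 with carvedilol, -2.17 in SuHx, -1.80 in hypoxia and -1.44 in normal. All SuHx animals lay below all normal animals. SuHx minus normal was -0.86 ± 0.23 (adjusted p = 0.0712), and -0.65 without the normal animal at -0.32 (adjusted p = 0.119). The exact two-sided permutation p of 0.00216 for the gene alone only restates that SuHx and normal did not overlap. SuHx with carvedilol minus normal was -0.60 ± 0.23 (adjusted p = 0.0949), and hypoxia minus normal was -0.54 ± 0.23 (adjusted p = 0.124). In SuHx against normal, 3 of 9 members (Fos, Nr4a1 and Cebpd) had no overlap between the groups, beside 5.46% of all genes.

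Myc (chr7:95483105-95488031), a factor for growth and ribosome production, was read by 10 spots of 1 probe. Animals ran from -3.48 to -2.58 in SuHx with carvedilol, from -3.38 to -2.69 in SuHx, from -3.69 to -2.51 in hypoxia and from -3.85 to -3.10 in normal ventricles. All groups overlapped, and SuHx with carvedilol minus normal was 0.51 ± 0.22 (adjusted p = 0.147). The value of Myc depended on the scaling of the arrays: with quantile normalisation, hypoxia minus normal was called at 1.56 (adjusted p = 8.05e-05), and with equal spread on every array at 1.15 (adjusted p = 0.000659), against 0.44 (adjusted p = 0.207) on the deposited scale. Normal arrays had the smallest SD of log ratios, as given above, and equal spread removes that gap.

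Nfkbia (chr6:78593844-78597307), the inhibitor that returns NF-kappaB to the cytoplasm, rose with carvedilol. Its level, the mean of 2 probes, ran from -0.51 to 0.62 with a median of 0.47 in SuHx with carvedilol, against -1.78 to -0.68 with a median of -1.17 in SuHx. Hypoxia animals ran from -1.31 to -0.34 with a median of -0.56, and normal animals from -1.95 to -0.26 with a median of -1.13. All 6 animals with carvedilol lay above all SuHx animals, and 5 of 6 lay above all hypoxia and all normal animals. The difference of SuHx with carvedilol was 1.41 ± 0.27 over SuHx, a 2.66-fold higher ratio (adjusted p = 0.0183). It was 1.33 ± 0.27 over normal (adjusted p = 0.00351) and 0.95 ± 0.27 over hypoxia (adjusted p = 0.0207). The call over SuHx was lost with the first array of each animal (adjusted p = 0.0857), with only the 2 groups in the fit (adjusted p = 0.0597) and without SuHx replicate 5 (adjusted p = 0.0535). The call over hypoxia was lost in 6 of 18 other ways of processing, where the adjusted p reached 0.313, and without the 2 hypoxia animals numbered over 100 the difference was 0.74 (adjusted p = 0.102).

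The 2 probes of Nfkbia gave the same direction with carvedilol and unlike profiles elsewhere. On probe A_44_P261450 the animals with carvedilol ran from 0.74 to 1.60, above every other animal: SuHx ran from -0.29 to 0.51, hypoxia from -0.66 to 0.25 and normal from -0.70 to 0.35. Fitted on its own, this probe gave 1.09 ± 0.22 over SuHx (adjusted p = 0.0224), 1.30 ± 0.22 over hypoxia (adjusted p = 0.00035) and 1.43 ± 0.22 over normal (adjusted p = 0.000369). Probe A_44_P261444 gave 1.74 ± 0.39 over SuHx (adjusted p = 0.0304), 1.23 ± 0.39 over normal (adjusted p = 0.0446) and 0.60 ± 0.39 over hypoxia (adjusted p = 0.313). Here the groups with carvedilol (lowest -1.75) and SuHx (highest -1.72) overlapped. For SuHx minus hypoxia the probes had opposite signs, -1.14 ± 0.39 on A_44_P261444 (adjusted p = 0.0572) and 0.21 ± 0.22 on A_44_P261450 (adjusted p = 0.581), so no direction is given for that comparison.

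**Figure D3:**
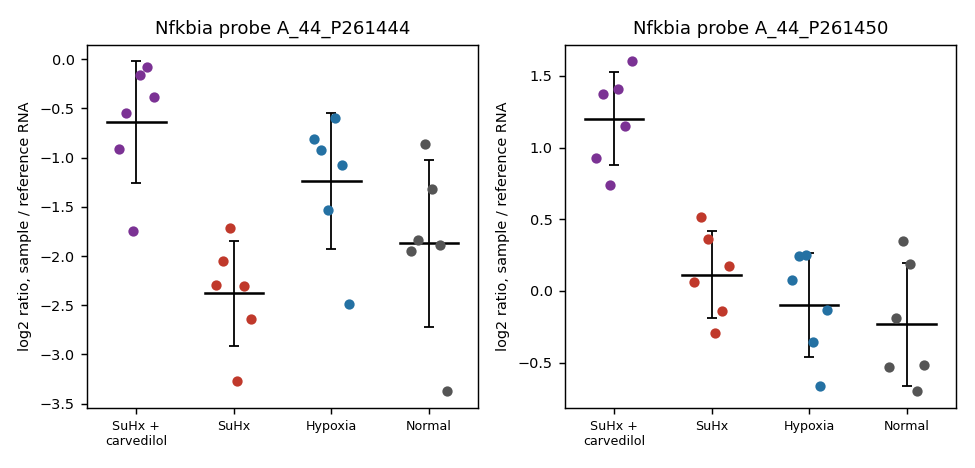
Log2 ratio of ventricle over reference RNA (vertical axis) for each of the 2 Nfkbia probes by group; each point is 1 animal, with mean and SD of 6 animals. On A_44_P261450 all animals with carvedilol (lowest 0.74) stand above the highest SuHx animal (0.51). On A_44_P261444 the mean is lowest in SuHx, and SuHx, hypoxia and normal animals all overlap with carvedilol.

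Cebpd (chr11:98268856-98269994), a transcription factor of the acute phase and cytokine response, rose in every exposed group relative to normal. Log2 ratios ran from 0.15 to 1.28 with a median of 1.04 in SuHx with carvedilol, from -0.05 to 1.06 with a median of 0.47 in SuHx, from -0.53 to 0.69 with a median of 0.16 in hypoxia, and from -1.31 to -0.51 with a median of -0.93 in normal ventricles. Every animal of both SuHx groups and 5 of 6 hypoxia animals lay above every normal animal. For carvedilol against normal, Cebpd was the 1 member of 9 with no overlap, beside 9.69% of all genes. The difference was 1.76 ± 0.25 for SuHx with carvedilol minus normal, a 3.39-fold higher ratio (adjusted p = 0.000194). It was 1.44 ± 0.25 for SuHx minus normal (adjusted p = 0.00622) and 1.04 ± 0.25 for hypoxia minus normal (adjusted p = 0.00917). All 3 calls held in the 18 other ways of processing and in the 24 fits without 1 animal. The order of the group means was carvedilol, SuHx, hypoxia and normal, but neighbours among the exposed groups did not pass the test: SuHx with carvedilol against SuHx had an adjusted p of 0.545 and SuHx against hypoxia 0.329. SuHx with carvedilol minus hypoxia was 0.72 ± 0.25 (adjusted p = 0.0505), and 0.76 (adjusted p = 0.0353) without the hypoxia array that read Junb lowest.

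Markers of several cell types differed between the same groups. Cardiomyocyte markers were far above the reference RNA in every animal: the mean log2 ratio per animal over the 7 of 8 markers with a value in every animal was at least 4.20. It ran from 5.41 to 7.28 with carvedilol, from 4.46 to 5.61 in SuHx, from 4.28 to 5.06 in hypoxia and from 4.20 to 5.63 in normal ventricles. Of the 8, 2 rose in SuHx with carvedilol against SuHx, 6 against hypoxia and 4 against normal. None was called lower with carvedilol, but 1 was lower at an unadjusted p under 0.05 in limma against SuHx, and 1 against normal. Ryr2, with a value in 4 hypoxia animals and so not in the mean, averaged 3.78 with carvedilol, 5.30 in SuHx and 5.40 in normal ventricles. It rose in SuHx against hypoxia and fell in hypoxia against normal. Atrial markers were also above the reference RNA, their mean over 4 tested genes running from 2.17 to 5.72 with carvedilol, from 2.94 to 5.00 in SuHx, from 2.24 to 3.71 in hypoxia and from 3.27 to 4.76 in normal ventricles. Of these, Dkk3 and Myl7 rose in both SuHx groups against hypoxia and fell in hypoxia against normal. The mean of 8 macrophage markers ran from 2.03 to 2.80 with carvedilol and from 1.80 to 2.85 in SuHx, above the 0.56 to 1.26 in hypoxia, and from 1.21 to 1.81 in normal ventricles. Of these markers 3 rose with carvedilol against normal, 6 with carvedilol against hypoxia and 3 in SuHx against hypoxia, and none in SuHx against normal, where 3 had an unadjusted p under 0.05 in limma. None was called with carvedilol against SuHx, where 3 were higher at an unadjusted p under 0.05 in limma. C1qc fell in hypoxia against normal. The part of these markers in the levels of Cebpd, Nfkbia and Atf3 was not tested. Vwf, 1 of 5 tested endothelial markers, rose with carvedilol against hypoxia and against normal. At an unadjusted p under 0.05 in limma, 2 of the 5 were higher and 1 was lower in each of these comparisons. Of 3 tested erythroid markers, Alas2 rose in the same comparisons and Hbb with carvedilol against hypoxia. Slc4a1 fell in hypoxia against normal. Its mean was 3.83 with carvedilol beside 5.08 in normal ventricles, a difference that was not called. Among 4 pericyte or smooth muscle markers, Rgs5 exceeded normal in SuHx by 1.33 (limma adjusted p = 0.0217) and with carvedilol by 0.91. Cspg4 was higher with carvedilol than in hypoxia. Among 5 fibroblast markers, Col1a2 was 0.88 higher in SuHx than in hypoxia. None of 3 tested lymphocyte markers was called. Of 6 neutrophil markers, 3 were tested and none was called by limma in any comparison, with 1 at an unadjusted p under 0.05 in 1 of the 6 comparisons.

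A wider set of 31 tested immediate early genes is given beside the share of all genes called. In SuHx with carvedilol against hypoxia 5 rose and 1 fell (median 0.23, all genes 0.06), where 16.4% of all genes were called. Klf2, a flow-responsive factor of endothelium, rose by 1.79 ± 0.28, Gadd45b, a stress gene, by 2.70 ± 0.57, and Dusp1, a phosphatase that switches off MAP kinases, by 0.92 ± 0.27. Fosl1, an AP-1 subunit, fell by 1.45 on the log2 scale. In SuHx against hypoxia, 5 rose and none fell (median 0.09, all genes 0.26), where 11.2% of all genes were called, with Klf2 at 1.61 ± 0.28, Dusp1 at 0.99 ± 0.27, Gadd45b at 2.04 ± 0.57 and Gadd45g, its relative, at 0.92 ± 0.27. With quantile normalisation and with equal spread, 2 rose and 1 fell there, Fosl1 being the lower one, so no direction is given to the list. Dusp1 was then not called, nor was it with carvedilol against hypoxia under quantile normalisation. In hypoxia against normal 2 fell, Dusp1 by 1.19 and Klf2 by 1.13 (median -0.25, all genes -0.38), but with quantile normalisation 3 were called higher and 1 lower, and with equal spread 2 and 2, so here too the list has no direction. Against normal, SuHx with carvedilol had Dusp6, another MAP kinase phosphatase, higher by 1.06 ± 0.26 and Fosl1 lower at -0.88 ± 0.25, but with quantile normalisation 4 were called higher and with equal spread 3, and Fosl1 was not called with either. None of the 31 was called by limma in SuHx with carvedilol against SuHx, with 1 at an unadjusted p under 0.05, or in SuHx against normal, with 5.

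Components of NF-kappaB signalling were called in the 3 comparisons that include hypoxia, in which 11.2% to 16.4% of all genes were called, beside 0.849% to 10.5% in the others. Of 16 tested subunits and regulators, 4 rose and 1 fell in SuHx with carvedilol against hypoxia (median 0.46, all genes 0.06), and 3 rose in SuHx against hypoxia (median 0.74, all genes 0.26). Nfkb1, which encodes the p50 subunit, was higher by 0.79 ± 0.17 with carvedilol and by 0.90 ± 0.17 in SuHx. Ikbkb, a kinase that marks the inhibitors for destruction, was higher by 1.35 ± 0.27 with carvedilol and by 1.44 ± 0.27 in SuHx. Traf6, an adaptor upstream of that kinase, was higher by 2.05 ± 0.56 with carvedilol and by 2.03 ± 0.56 in SuHx, with a value in 4 of the 6 hypoxia animals. Rela, which encodes the p65 subunit, was higher by 1.56 ± 0.46 with carvedilol, and Chuk, a partner kinase of Ikbkb, fell by 3.08 with values in 5 animals with carvedilol and 4 hypoxia animals. In hypoxia against normal, 4 fell and 1 rose (median -0.70, all genes -0.38): Nfkb1 fell by 0.61, Traf2 by 0.96, Traf6 by 2.38 and Bcl3, a nuclear regulator, by 1.45, while Nfkbiz rose by 1.68 ± 0.53. No component was called by limma in SuHx with carvedilol against SuHx, where 0 of 16 had an unadjusted p under 0.05. None was called for SuHx with carvedilol or SuHx against normal, with 1 of 16 at an unadjusted p under 0.05 in each, but with quantile normalisation and with equal spread Nfkbiz was called higher with carvedilol than in normal.

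Of 14 tested NF-kappaB target genes, 2 rose and 1 fell in SuHx with carvedilol against normal (median 0.18, all genes -0.32). Ptgs2, the inducible cyclooxygenase, rose by 1.92 ± 0.40 and Il6, an inflammatory cytokine, by 1.70 ± 0.43, while Cxcl1, a neutrophil chemokine, fell by 0.93. Ptgs2 also rose in hypoxia against normal, by 1.36 ± 0.40. Cxcl1 fell by 0.85 with carvedilol and by 0.87 in SuHx against hypoxia, and Il1b rose by 1.16 ± 0.36 with carvedilol against hypoxia. None of the 14 was called by limma in SuHx with carvedilol against SuHx, with 2 at an unadjusted p under 0.05, although Ptgs2 was called higher there with quantile normalisation and with equal spread. The same scalings gave 4 higher and 1 lower for SuHx with carvedilol against normal, 2 lower (Cxcl1 and Ptgs2) for SuHx against hypoxia, and 4 and 3 higher for hypoxia against normal. With carvedilol against normal these were Ccl2, Cxcl2, Il6, Ptgs2 and Sod2, and the call of Cxcl1 was lost. They also called Il6 higher in SuHx than in normal, where none of the 14 was called on the deposited scale, with 3 at an unadjusted p under 0.05.

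Among 12 partners of the bZIP and Myc families, Ddit3, a stress factor that pairs with C/EBP proteins, rose by 1.00 ± 0.19 with carvedilol and by 0.71 ± 0.19 in SuHx against hypoxia. It rose by 0.69 ± 0.19 with carvedilol against normal (adjusted p = 0.0251), a call lost with quantile normalisation and with equal spread. Cebpb, the close relative of Cebpd, rose by 0.93 ± 0.27 with carvedilol and by 1.08 ± 0.27 in SuHx against hypoxia. Both calls of Cebpb were lost with quantile normalisation. Against normal Cebpb was not called in any group on the deposited scale, but was called higher with carvedilol under quantile normalisation and equal spread. A difference between Cebpb and Cebpd was not tested. Of 13 upstream kinases and factors, Stat3, which drives Cebpd in cytokine signalling, rose by 0.94 ± 0.30 with carvedilol against hypoxia, and Mapk14, the p38 alpha kinase, by 0.58 ± 0.20. Both calls were lost with quantile normalisation and with equal spread, and that of Mapk14 also with arrays centred on their median. Mapk14 fell by 0.89 in hypoxia against normal (adjusted p = 0.00548), and Atf1, a relative of CREB, rose by 1.90 ± 0.44 in SuHx against hypoxia (adjusted p = 0.00726). Of 8 genes responsive to glucocorticoids, which also induce Nfkbia and Cebpd, 3 rose and 1 fell with carvedilol against hypoxia (median 0.56, all genes 0.06). Fkbp5 rose by 1.64 ± 0.46, Per1 by 1.41 ± 0.40 and Ddit4 by 3.10 ± 0.45, the last with a value in 4 hypoxia animals, while the receptor gene Nr3c1 fell by 0.53. Ddit4 also rose with carvedilol against normal, by 1.52 ± 0.40. In SuHx against hypoxia 4 of the 8 rose and none fell (median 1.06, all genes 0.26), Klf9 by 1.54 ± 0.33, Ddit4 by 2.01 ± 0.45, Per1 by 1.55 ± 0.40 and Fkbp5 by 1.44 ± 0.46, the last not called with quantile normalisation or centred arrays. In hypoxia against normal 1 rose and 3 fell (median -0.45, all genes -0.38): Sgk1 rose by 1.38 ± 0.41, while Klf9 fell by 1.30, Ddit4 by 1.58 and Per1 by 1.38, and Ddit4 was not called with quantile normalisation. In SuHx with carvedilol against SuHx none of the 8 was called by limma, with 1 at an unadjusted p under 0.05.

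Of the 9 members, 8 had an SD between animals below that of the median gene. Jun, Myc and Egr1 were each a mean of 10 spots, and Nfkbia was a mean of 2 probes. Such averaging can lower an SD, and its part here was not tested. The pooled SD between animals was 0.26 for Jun, 0.35 for Myc, 0.36 for Atf3 and for Nr4a1, 0.41 for Cebpd, 0.44 for Egr1, 0.46 for Nfkbia, 0.54 for Fos and 0.57 for Junb, beside a median of 0.56 over 6279 genes with a value in all 24 animals. Between arrays of the same animal, known for 9 animals, the SD was 0.21 for Atf3 and 0.25 for Jun, but 0.72 for Fos and 1.09 for Junb, beside a median of 0.71. The values of Fos and Junb rested on 1 array of 1 hypoxia animal, on which Fos read -5.72 beside -2.97, -2.51 and -3.62 on that animal's other arrays, and Junb read -7.57 as given above. Without that array the SD between arrays was 0.44 for Fos and 0.50 for Junb, both below a median of 0.69. The other 15 animals were measured on 1 array each.

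**Figure D4:**
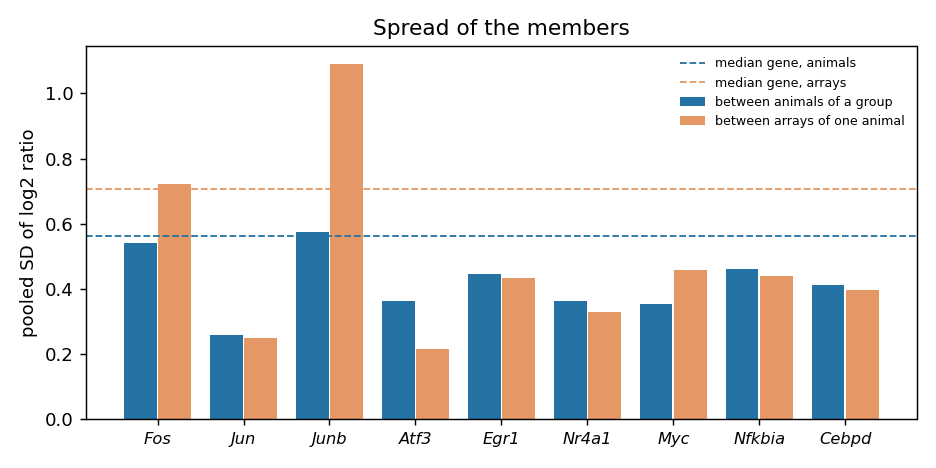
Pooled SD of the log2 ratio (vertical axis) between animals of a group (blue) and between arrays of the same animal (orange) for the 9 members; dashed lines are the medians over all genes with a value in 24 animals. The high bars between arrays for Junb (1.09) and Fos (0.72) rest on 1 hypoxia array, without which they are 0.50 and 0.44.

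Within groups the members moved together only in part. Across the 24 animals, as deviations from the group means, the highest of the 36 pairwise correlations were Atf3 with Nr4a1 (r = 0.75), Myc with Cebpd (r = 0.63), Jun with Nr4a1 (r = 0.58) and Egr1 with Nr4a1 (r = 0.51). The median over the pairs was 0.13 and 12 pairs were below 0, the lowest being Nfkbia with Egr1 and with Nr4a1 (r = -0.43 each). All genes of an animal share its arrays and its RNA, so these values describe the arrays as well as the animals. The genes most like the mean of the immediate early members were Nepro (r = 0.76), Slit3 (r = 0.74), Gja5 (r = 0.73), Rps15a (r = 0.72) and Bmp1 (r = 0.72), out of 6270 genes compared. Those most like Cebpd were Alox5ap (r = 0.80), Rasd1 (r = 0.78) and Jak2 (r = 0.72), and those most like Nfkbia were Naa50 (r = 0.72), Tcea3 (r = 0.71) and Kctd1 (r = 0.70).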

How the data were processed

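Agilent arrays with 2 colours of rat right ventricle RNA were measured against a pooled rat cell line reference. The deposited values are log2 ratios of Cy5 (ventricle) over Cy3 (reference), normalised by lowess within each array with the marray package, per the study's design text; no source used here states a background correction or why values are empty, and 34.9% of the values are empty. Array medians lay between -0.14 and 0.06. The title of the other deposited table says log10 for the same values; they were read as log2 because they span -13.6 to 14.0, wider than scanner intensities allow in log10, and folds rest on that reading. Of 43379 spots, 43301 matched 1 name in the other deposited table to within 1e-06, and 78 matched several. Spots of a probe, then arrays of an animal, then probes of a gene were averaged. Probes needed a value in at least 4 of 6 animals in every group, which left 9775 genes.

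Animal means were fitted with limma 3.58.1 in R 4.3.3, with 1 mean per group and no covariate, with Benjamini-Hochberg adjustment and a threshold of 0.05. Exact permutation tests used scipy 1.17.1. The fit was tested on simulated data: of genes changed by 1 log2 unit, between 14% (SuHx with carvedilol against normal) and 27% (SuHx with carvedilol against SuHx) were called, and of those changed by 2, between 55% (SuHx against normal) and 66% (SuHx against hypoxia and hypoxia against normal). Separate animals are identified by the animal numbers of the labels. Replicate numbers of animals were assigned here, in order within each group, whereas the labels use replicate for the arrays of an animal.

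The members, the gene lists and the tests were chosen with earlier results of these data known. All members are named; of each list, up to 4 called genes with the lowest adjusted p per comparison are named, and Nfkbiz, Rela and genes called only under another scaling were added after their values were seen. Genes alike in pattern are the 5 with the highest r to the immediate early mean and the 3 highest for Nfkbia and Cebpd. Promoters are RefSeq's on GRCr8. The alternatives were the normalisation, scale, filter, probe choice, array choice, animal numbering, replicate block and leaving out each animal or 1 deviant hypoxia array.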

Additional observations from a re-analysis of the deposited data

Results flagged for a closer look

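Of the 44 sets of 6 animals examined, 4 had an animal standing far from the other 5 by Dixon's test of the gap relative to the range; chance alone marks about 1 in 20 such sets. Fos in SuHx replicate 6 was the lowest of its group at -4.30 (1 array), and without this animal SuHx minus normal was -0.86 (adjusted p = 0.319 in limma). Egr1 in SuHx with carvedilol replicate 1 was the highest of its group at -1.94 (1 array), and without it SuHx with carvedilol minus SuHx was 0.93 (adjusted p = 0.112 in limma). Normal replicate 6, measured on 1 array, was the highest normal animal both for Atf3, at -0.26, and for Nr4a1, at -0.32. Without it Atf3 was 0.74 higher with carvedilol than in normal ventricles and passed the threshold (adjusted p = 0.0168 in limma), while Nr4a1 with carvedilol minus normal was -0.40 (adjusted p = 0.223 in limma). Atf3 and Nr4a1 are the pair of members with the highest within-group correlation, and both values of this animal enter it.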

How the results depend on the processing

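The calls of Cebpd over normal in 3 groups, of Nfkbia with carvedilol over normal and of Atf3 in SuHx over hypoxia held in all 18 alternatives and all 24 omissions of 1 animal, and no called difference changed sign. These settings are not independent checks. Cebpd and Atf3 were read by 1 probe each, so the choices of probe left their differences as they were. Leaving out an animal of a group not compared also left a difference as it was. The number of members called in SuHx with carvedilol against SuHx was 1, and 2 with quantile normalisation, equal spread, values on every array, the probe with the most values, the animal as a random block, animal weights, and without the hypoxia animals numbered over 100 or the 2 hypoxia arrays with the fewest values. It was 0 with the first array of each animal or only the 2 groups, 4 by unadjusted exact test, and 0 to 2 without 1 animal. With carvedilol against hypoxia it was 1, and 0 with quantile normalisation, equal spread, only the 2 groups or without the hypoxia animals numbered over 100. It was 2 with values on every array, the probe with the most values, probe 2 alone, numbering as a covariate or without the hypoxia array with the lowest Junb, a setting added after the data were seen, 3 by exact test, and 1 to 2 without 1 animal. With carvedilol against normal it was 2, and 6 with quantile normalisation, equal spread, animal weights or the exact test, 4 with values on every array or the random block, 3 with the probe with the most values or without the hypoxia animals numbered over 100 or the 2 hypoxia arrays, and 2 to 3 without 1 animal. SuHx against hypoxia had 1, and 2 with quantile normalisation, equal spread or the random block, and 1 in every omission. SuHx against normal had 2, and 1 with a filter of 2 animals, a filter per comparison or the first array, 3 with quantile normalisation, the probe with the most values, the random block, only the 2 groups or without the hypoxia animals numbered over 100, 4 with values on every array, 6 with animal weights, 7 by exact test, and 1 to 3 without 1 animal. Hypoxia against normal had 1, and 2 with quantile normalisation, equal spread, animal weights, without 2 hypoxia arrays or by exact test, and 1 in every omission. For any difference among the 4 groups it was 5, and 3 with a filter of 2 animals or numbering as a covariate, 4 with the first array or the replicate block, 6 with the random block, 7 with values on every array, 9 with animal weights, and 3 to 6 without 1 animal. Nfkbia in SuHx minus hypoxia, not called at -0.47, was 0.21 with probe A_44_P261450 alone, with the probe with the most values and with values on every array, settings that use that probe only. The other causes were not tested.

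Animals with the same replicate number in different groups did not deviate together (median r = 0.0037 over 36 pairs). Those replicate numbers were assigned here by order. The labels share no animal number between groups, so a pairing of animals could not be examined. With the replicate block, 2 members were called for carvedilol against hypoxia and 1 for SuHx against normal. Genes called over the whole array ranged from 1 to 376 around 83 for carvedilol against SuHx, 553 to 2370 around 1606 against hypoxia and 259 to 2203 around 1028 against normal. For SuHx they ranged from 578 to 1643 around 1099 against hypoxia and from 14 to 1020 around 89 against normal, and for hypoxia against normal from 654 to 1691 around 1177. With equal spread, 23.3% of calls were higher against 34.9% as deposited for carvedilol against SuHx, and 28.2% against 42.7% for SuHx against normal. Quantile normalisation gave 19% against 6.97% for hypoxia against normal, and moved the median of all genes by 0.10 there and by -0.10 for SuHx against hypoxia.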

Other observations

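Of the 30 member differences whose size on the deposited scale is not given above, none of which had an unadjusted p under 0.05, 14 changed sign in at least 1 of the alternatives and 8 in at least 1 omission of an animal. Of their 536 values under the alternatives, 7 were called, on Egr1, Jun and Myc, and in the omissions none of 720 was. Against the mean of the other immediate early members, within groups and over 24 animals that share their arrays, Nr4a1 had the highest correlation (r = 0.60) and Myc the lowest (r = 0.08).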
